A study of Mus musculus with 4 samples.

Results

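The comparison was between one microarray of LSK cells from mice given the BET inhibitor JQ1 and one array of LSK cells from mice given its solvent DMSO. Its members were the probes that the scanner software marked as well above background on both arrays, with control spots and outlier spots left out. There were 24080 such probes of 55681 on the array (43.2%). Named by transcript, they gave 12326 measured genes of 21154 with a probe. LSK cells are the Lineage-negative, c-Kit+, Sca-1+ fraction of bone marrow, which holds blood stem cells and multipotent progenitors.

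All groups shared a C57BL/6 background and the genotype JAK2V617F/Ezh2Δ/Δ. Whole marrow of JAK2V617F;Ezh2flox/flox;Cre-ERT2 donors had been grafted into CD45.1+ wild-type hosts after lethal irradiation, so only cells of the graft carried these alleles. Once Ezh2 was deleted, the mice were treated for 2 weeks with JQ1 or with DMSO alone, and LSK cells and megakaryocyte/erythroid progenitors (MEP) were sorted when the course ended. Both LSK arms therefore carried the Jak2 mutation and the Ezh2 deletion, and differed in JQ1. The sources used here give neither age nor dose, nor how many mice were pooled for an array.

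BET proteins bind acetylated histones and recruit the elongation kinase P-TEFb to genes, and JQ1 occupies the pocket that holds the acetyl group. Genes with large enhancers, often those that define a cell's lineage, are known to be among the most sensitive to loss of BET binding. Ezh2 is the methyltransferase of Polycomb repressive complex 2, which silences developmental genes, and JAK2V617F is a constantly active form of the kinase that relays erythropoietin, thrombopoietin and other cytokine signals. LSK cells transcribe low levels of genes of several blood lineages before commitment, which is called lineage priming.

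A level below is the log2 of a probe's processed signal relative to the 75th percentile of its array. The JQ1 array was further lowered by 0.063 so that the median measured gene read the same on both arrays, and a gene was represented by its brightest probe. Differences are JQ1 minus DMSO. A gene was counted as higher or lower when it differed by at least 2-fold. With 1 array per group there was no replicate, no test and no p-value, and a 2-fold difference between these arrays is a difference between 2 samples. In bulk RNA of sorted cells, fewer cells of a type and less RNA per cell cannot be told apart.

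The 4 arrays of the series lay on 1 slide and had between 25156 and 29603 probes well above background, with 75th percentile signals of 210 to 327 and no saturated spot. Both LSK arrays correlated at 0.991 over 23005 probes, whereas DMSO MEP was the array least like the rest, at 0.973 to 0.976. All 8 LSK markers were above background on both LSK arrays, and their summed signal was 316 times the 75th percentile on DMSO and 380 on JQ1. Sca-1 itself (Ly6a) read 4.49 and 4.21 on the LSK arrays against -0.32 and 0.22 on the MEP arrays. The probe of Ezh2 read 3.36 on both LSK arrays, but its position relative to the floxed exons is unknown, so it checks nothing about the deletion.

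The 2 LSK profiles were close, and the differences that existed were mostly downward. Levels on both arrays correlated at 0.989 over the 12326 genes, and 90.1% of the genes lay within 1.5-fold. By at least 2-fold, 67 genes (0.544%) were higher on the JQ1 array and 397 (3.22%) were lower. By 4-fold, 1 gene was higher and 63 were lower. This split depended on the zero point. It was 79 higher and 356 lower without the final shift, 153 and 256 when each array was scaled to its median probe, and 847 and 135 when each was scaled to its spike-in probes, where the median gene itself read 0.63 higher on JQ1. With median scaling the median gene read 0.26 higher. Such scalings add the same number to every gene, so the values below are relative to the median gene, and a list median between 0 and -0.26, or between 0 and -0.63, turns positive under them.

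Dim genes carried most of the calls. When genes were divided by level into 5 bins of equal size, the dimmest bin held 46 higher and 205 lower genes, and the difference had an SD of 0.60 over genes. In the brightest bin 0 were higher and 24 lower, with an SD of 0.26. The error of a single probe was estimated from 3120 genes with 2 or more measured probes, and was 0.38 log2 (SD) in the dimmest bin and 0.11 in the brightest. This covers probe error on these arrays and not the spread between mice, sorts or labellings. Of the 51 genes called lower that had 2 or more measured probes, 48 had every probe below 0 and 31 had every probe past 2-fold. Of 9 such genes called higher, 7 had every probe above 0 and 5 had every probe past 2-fold. The other 346 lower and 58 higher calls rest on 1 probe.

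Of 61 gene lists, that of pre-B-cell receptor and B-lineage genes had one of the lowest medians. It lay at -1.47 over 34 measured members of 40 (all measured genes: 0), with 19 lower by 2-fold, 0 higher, and 31 below the median gene (50% of all genes, by construction). Over all measured genes 3.22% were lower and 0.544% higher by 2-fold, and the counts of each list are to be set beside these shares. The summed signal of the B-lineage list was 665 on DMSO and 344 on JQ1. Of the remaining members, the B-cell factor Pax5, the kinase Blk and the IgE receptor Fcer2a were above background on neither array; Pax5 holds cells in the B lineage. Fcrla and Cecr2 were above background on DMSO only and Bank1 on JQ1 only.

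The surrogate light chain is the stand-in for an antibody light chain on early pre-B cells, and its genes are shown first by their promoters. They are printed because 3 genes of the pre-B-cell receptor that were lower together share a PU.1-type core, GAGGAA on either strand (TTCCTC when read on the other strand), which is in capitals. Vpreb2, Pou2af1 and Cd72 hold it as well, and Vpreb3, Rag1 and Blnk do not. Hlf, a stem cell factor that was higher, is printed beside them and holds none. The core was in 35.4% of promoters of higher genes, so 1 gene without it shows no contrast. Each is 300 bases from the RefSeq table of build GRCm38.p6, 5′ to 3′ on the gene's own strand, from 250 bases before the transcript start. Igll1 lies at chr16:16863936-16864235 (minus strand), Vpreb1 at chr16:16869206-16869505 (minus), Cd79a at chr7:24897247-24897546 (plus) and Hlf at chr11:90390868-90391167 (minus).
Igll1: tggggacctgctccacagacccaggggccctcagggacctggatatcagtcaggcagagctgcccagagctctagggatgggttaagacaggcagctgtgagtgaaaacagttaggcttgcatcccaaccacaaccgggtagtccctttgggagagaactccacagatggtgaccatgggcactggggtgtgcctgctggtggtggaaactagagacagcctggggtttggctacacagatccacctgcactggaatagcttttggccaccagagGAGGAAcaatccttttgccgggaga
Vpreb1: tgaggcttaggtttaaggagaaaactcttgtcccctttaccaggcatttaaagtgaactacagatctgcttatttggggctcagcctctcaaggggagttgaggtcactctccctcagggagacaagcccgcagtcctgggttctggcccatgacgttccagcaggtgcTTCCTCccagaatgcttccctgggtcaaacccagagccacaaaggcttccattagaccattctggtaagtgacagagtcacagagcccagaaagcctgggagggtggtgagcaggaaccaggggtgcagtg
Cd79a: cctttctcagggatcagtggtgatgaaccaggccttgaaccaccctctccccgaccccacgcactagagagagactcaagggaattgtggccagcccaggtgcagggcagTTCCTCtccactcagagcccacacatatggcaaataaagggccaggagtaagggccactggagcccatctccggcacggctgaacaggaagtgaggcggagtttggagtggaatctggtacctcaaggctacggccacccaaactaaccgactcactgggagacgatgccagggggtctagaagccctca
Hlf: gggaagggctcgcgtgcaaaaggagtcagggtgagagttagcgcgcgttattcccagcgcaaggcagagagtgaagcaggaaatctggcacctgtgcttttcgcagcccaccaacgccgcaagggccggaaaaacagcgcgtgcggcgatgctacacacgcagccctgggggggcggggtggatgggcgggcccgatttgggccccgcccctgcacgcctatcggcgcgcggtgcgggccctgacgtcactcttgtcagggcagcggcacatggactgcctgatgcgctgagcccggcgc

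PU.1 is a transcription factor of myeloid and early B cells. Its core was found in 9 of 14 promoters of the lower B-lineage genes with an entry and in 13 of 26 over all measured B-lineage genes. It was in 10 of 26 monocyte and macrophage promoters (7 of 14 of the lower ones), in 9 of 28 of stem cell transcription factors and in 4 of 17 of MHC class II and dendritic genes (23.5%). The share was 30.7% over 9901 measured genes with an entry, 43.8% over 292 genes that were lower by 2-fold and 35.4% over 48 that were higher. The lower genes' promoters also held fewer CG dinucleotides, with a median of 7 in 300 bases against 20 for all measured genes and 9 for the higher genes. Promoters with at most 5 CG made up 42.1% of the lower genes and 11.8% of all measured genes. The part of CG content in the share of the core was not tested. Of 3 motifs searched, the EBF1-type pair CCCNNGGG, which reads alike on both strands, was in 4 of 14 lower B-lineage promoters, in 20.8% of measured genes, in 18.5% of all lower genes and in 27.1% of the higher genes. An interferon-type element was in 21 of 292 lower genes (7.19%), in 6 of 48 higher genes (12.5%) and in 3.90% of measured genes. A match describes letters and is not a bound site.

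Each component of the pre-B-cell receptor named here, and its partner Vpreb3, read lower on JQ1, by 2.61-fold (Cd79b) to 6.88-fold (Vpreb3). Vpreb1, which forms the surrogate light chain with Igll1, read 6.52 on DMSO and 4.06 on JQ1, 5.50-fold lower. Igll1 read 3.98 and 1.42, 5.91-fold lower. Vpreb3, a chaperone-like partner of the receptor in the secretory pathway, read 6.24 and 3.46, 6.88-fold lower. Each of these rests on 1 probe. Vpreb2 read 3.61 and 1.07, although it is nearly identical to Vpreb1 and their probes may share targets. Of the signalling chains of the receptor, Cd79a read -0.57 and -2.84 and Cd79b 5.47 and 4.08.

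Downstream of the receptor, the adaptor Blnk, which links it to calcium signalling, read 5.05 and 2.52, 5.75-fold lower. The mature B-cell antigen Ms4a1 (CD20) read -0.14 and -2.47. Some transcription factors of the B lineage were lower as well. Ebf1, which starts the B-cell programme, read 0.43 and -1.91, and Pou2af1, the B-cell co-activator of octamer-binding factors, read 2.69 and 0.24. Irf4, which acts at the pre-B stage and in plasma cells, read -0.85 and -2.88. Ebf1, Cd79a and Cd79b are named here for their roles after their values were seen.

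Genes that prime LSK cells for the lymphoid fate before commitment did not move as one. Of 23 measured members, 7 were lower by 2-fold, 0 were higher, and the median was -0.33. The lower members were Blnk, the recombinase Rag1 (-0.39 on DMSO and -2.82 on JQ1), the chemokine receptors Ccr7 and Ccr9, the early lymphoid surface protein Ly6d (3.85 and 2.19), the oxysterol receptor Gpr183 and the leukocyte antigen Cd52 (6.82 and 5.59). The receptor for interleukin-7, Il7r, read 0.61 and -0.27, within 2-fold. Flt3, the receptor that marks lymphoid-primed progenitors, read 4.50 and 4.37. Dntt, the polymerase that adds bases to antigen receptor joints, was among the brightest members and read 7.52 and 7.40. Satb1, an organiser of lymphoid chromatin, read 2.92 and 3.01, and Ikzf1, a factor required for lymphoid priming, read 2.55 and 2.67. Dntt, Satb1 and Ikzf1 are named after their values were seen. Flt3, Dntt, Satb1 and Ikzf1 thus read alike on both arrays, by at most 1.09-fold.

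Plasma cell and mature B genes, some of which are also in the B-lineage list, had 6 lower and 0 higher of 12 measured, with a median of -0.71. Mzb1, a chaperone of antibody assembly, read 3.43 and 0.86, 5.92-fold lower.

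T-cell and natural killer genes were lower too. Of 20 measured T-cell genes, 9 were lower by 2-fold (45%, all measured genes: 3.22%) and 0 higher, with a median of -0.45. Lef1, a factor of early T and B cells, read 2.02 on DMSO and -0.29 on JQ1, 4.96-fold lower, and its 2 probes gave -2.58 and -2.31. The kinase Zap70, which signals from the T-cell receptor, read -0.15 and -1.54. Thy1, which T cells share with stem cells, read 3.70 and 3.66. Of 17 measured NK and cytotoxic genes, 7 were lower (41.2%) and 0 higher, with a median of -0.81. The chemokine Xcl1 read -0.01 and -2.86, 7.21-fold lower. Il2rb, the shared receptor chain for interleukin-2 and interleukin-15, read 0.77 and -0.84, and its 2 probes gave -1.74 and -1.60. Tbx21 and Eomes, the 2 T-box factors of NK cells, read -0.62 and -1.96 on DMSO and -2.08 and -3.54 on JQ1. The NK receptors Klra7 and Klra8 differed by -2.38 and -2.28, with every probe past 2-fold, although this family has near-identical members that probes may not separate.

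Antigen-presentation genes were lower across a wide range of levels. Of 23 measured MHC class II and dendritic genes, 12 were lower by 2-fold (52.2%, all measured genes: 3.22%), 0 were higher and 22 lay below the median gene. Their median was -1.02, and their summed signal was 1145 on DMSO and 612 on JQ1. The class II chain H2-Ab1 read 8.29 and 6.95, 2.52-fold lower, with probes at -1.34 and -1.31. H2-Eb1 read 7.70 and 6.09, H2-Aa read 4.51 and 2.92, and their chaperone Cd74, the invariant chain, read 6.64 and 4.77. The dendritic-cell genes Clec9a, a receptor for dead cells, and Cd83, a maturation marker, were 3.99-fold and 4.76-fold lower. Irf8, the factor that directs progenitors to monocytes and dendritic cells, read 6.01 and 4.53. The class I immunoproteasome subunits Psmb8 and Psmb9 were within 1.3-fold, at -0.25 and -0.36.

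Monocyte and macrophage genes followed the same direction. Of 33 measured members, 17 were lower by 2-fold, 0 higher and 30 below the median gene, and the median was -1.02. Their summed signal was 816 on DMSO and 356 on JQ1. F13a1, the clotting transglutaminase chain that monocytes make, read 5.84 and 3.52, 5.02-fold lower by both probes. Csf1r, the receptor for macrophage colony-stimulating factor, read 5.35 and 3.75, but its 3 probes ranged from -1.86 to -0.15. Cx3cr1, the fractalkine receptor of monocytes, read 3.98 and 2.75, and its 3 probes lay between -1.38 and -1.17. Ly6c1 read 7.09 and 5.90, Slpi, a protease inhibitor, read 6.27 and 4.41, and Mpeg1, a pore-forming protein of macrophages, read 5.04 and 3.34. The inflammasome gene Mefv read 1.99 and -0.20, and both of its probes were past 2-fold. These genes span dim to bright probes, and no measured member was higher by 2-fold.

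Granulocyte genes were mixed. Of 22 measured primary granule genes, which are made at the promyelocyte stage, 3 were lower and 0 higher, with a median of -0.34. Mpo, the peroxidase of the primary granule, read 9.96 and 9.11, and neutrophil elastase Elane read 5.73 and 4.65. Haptoglobin, Hp, read 6.12 and 4.61. Among 16 measured alarmin and secondary granule genes, which come later, 4 were higher (25%) and 2 lower (12.5%). Of these 16, 11 lay below the median gene, and the median was -0.10 (0.018 over 27 genes without the filter on background). Camp, an antimicrobial peptide, read -0.13 on DMSO and 1.78 on JQ1, 3.76-fold higher, and its 2 probes gave 1.91 and 1.97. S100a9, a subunit of the alarmin calprotectin, read 2.65 and 4.12, and Chil3 and Wfdc21 were 2.41-fold and 2.36-fold higher. Of members seen on 1 array, the granule proteins Ltf and Ngp were above background on JQ1 only, and the collagenase Mmp8 (at least 3.53-fold lower) and the cytokine Il1b on DMSO only. In the same list Ifitm6 (-1.81) and lipocalin Lcn2 (-1.05) were lower, so the list was not uniform. Another 7 members, among them Retnlg, Cd177 and Mmp9, were above background on neither array. Of 5 neutrophil markers, 3 were above background on DMSO and 5 on JQ1. Their summed signal was 1052 on DMSO and 584 on JQ1, a sum that is mostly the primary granule gene Mpo. The part of neutrophils of any stage in these values was not tested.

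Genes of mast cells, red cells and platelets had medians near 0, though the platelet genes past 2-fold were mostly lower. Of 28 measured mast and basophil genes, 1 was lower (the protease Mcpt2, -1.13), 22 lay below the median gene, and the median was -0.16. Of 39 erythroid genes, 3 were lower and 1 higher, with a median of -0.08. The membrane gene Epb42 was 2.63-fold higher, while the heme-related Tspo2 and the carbonic anhydrase Car1 were 2.45-fold and 2.16-fold lower. Of 35 megakaryocyte genes, 6 were lower (17.1%, all measured genes: 3.22%) and 1 higher, with a median of -0.19. Among genes above the median level the erythroid median was 0.03 and the megakaryocyte median 0.17, so the sign of neither median is settled. The lower ones included platelet factor 4, Pf4 (2.84 on DMSO and 1.60 on JQ1), von Willebrand factor, Vwf (0.86 and -0.61), and the adhesion receptor Cd226 (-0.38 and -2.81), and the higher one was Mmrn1, a matrix protein (-1.54 and -0.07).

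Markers of other cell types gave their own values on the 2 LSK arrays. Of 6 B-lineage markers, 5 were above background on each array, and their summed signal was 113 on DMSO and 20.3 on JQ1. T-cell markers had 4 of 4 above background on DMSO and 3 on JQ1, with sums of 14.7 and 10.4. NK markers had 4 of 4 and 3 of 4, with sums of 5.32 and 3.02. The 3 monocyte markers on the array were above background on both arrays, with sums of 61.6 and 22.8. Plasma cell markers (2 of 2 on both) had sums of 5.23 and 2.28, mast and basophil markers (4 of 4 on both) 154 and 114, and erythroid markers (4 of 5 on both) 1.30 and 1.65. Megakaryocyte markers had 4 of 4 above background on DMSO and 3 on JQ1, with sums of 13.2 and 8.81. Stromal and endothelial markers had 0 of 3 and 1 of 3. B-lineage and monocyte markers moved with the lists above, and their part in those results was not tested.

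The 4 lists of stem cell genes lay on both sides of the median gene. None of the 18 measured LSK surface and receptor genes differed by 2-fold, 12 lay below the median gene, and the median was -0.11 (0.048 over 19 genes without the filter on background). Kit, the stem cell factor receptor, read 4.45 on DMSO and 4.36 on JQ1. Cd34 read 7.51 and 7.86, Cd48 5.95 and 6.39, and Cxcr4, the receptor that holds stem cells in the marrow, 2.29 and 1.60. The largest change in the list was that of Cxcr4, 1.61-fold lower. Of 20 measured surface genes of long-term stem cells, 2 were higher by 2-fold and 1 lower, with a median of 0.30. Slamf1 (CD150) read -1.90 and -0.96, just under 2-fold, and Procr (the protein C receptor) read 0.84 and 1.30. Among genes above the median level, 6 of these 20, the median was -0.003.

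Transcription factors of stem cells lay mostly above the median gene. Of 38 measured, 28 lay above the median gene and 10 below, 2 were higher by 2-fold and 0 lower, and the median was 0.20. Hlf, a factor tied to stem cell identity, read 1.99 on DMSO and 3.17 on JQ1, 2.26-fold higher. Mecom (Evi1) read -2.80 and -1.78, near the floor of detection, and Gfi1b, a repressor in erythroid and platelet cells, read 2.79 and 3.44. Meis1, the partner of Hox proteins, read 4.27 and 4.82, and Runx1 read 2.39 and 2.43. In the list of stem cell metabolism, efflux and quiescence, 16 of 27 measured genes lay below the median gene, 2 were higher and 1 lower by 2-fold, and the median was -0.14. The caveolar protein Cavin2 was the lower one, at -0.87 and -2.37. The niche factor Angpt1 read 3.07 and 3.94, and the lipoprotein receptor Vldlr read 3.23 and 4.60, 2.59-fold higher by both probes. Meis1, Runx1 and Procr are named for their roles after their values were seen.

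The targets of the inhibitor and their partners read within 2-fold. None of 33 measured genes of BET proteins and P-TEFb control was past 2-fold, and the median was 0.07. Hexim1, an inhibitor of P-TEFb used as a readout of BET inhibition, read 0.85 on DMSO and 1.16 on JQ1, 1.24-fold higher. Cdk9, the kinase of P-TEFb, read 4.80 and 4.78. None of 14 measured PRC2 subunits and none of 24 of PRC1 passed 2-fold. Eed and Suz12, the core partners of Ezh2, read 4.51 and 2.65 on DMSO and 4.60 and 2.77 on JQ1. Ezh1, the relative that can take over from Ezh2, read 3.33 and 3.59, but its 3 probes ranged from -1.39 to 0.27. Among 81 measured chromatin modifiers 0 passed 2-fold, and the de novo DNA methyltransferase Dnmt3b was the highest, at 4.04 and 4.71 with 3 probes between 0.61 and 0.67.

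Myc itself, often lowered by BET inhibitors in tumour lines, read 4.17 on DMSO and 4.29 on JQ1. Of 12 measured members of the Myc, Max and Mxd network, only Mycl passed 2-fold, at -0.63 and -2.62. Mycl is made by dendritic cells as well as by progenitors. None of 48 ribosome biogenesis and Myc target genes passed 2-fold, and their median was 0.09. Of 81 cytosolic ribosomal protein genes, 77 lay below the median gene by small amounts, with a median of -0.15 and 0 past 2-fold, but this offset became 0.11 above zero when arrays were scaled to the median probe. Mitochondrial ribosomal proteins (77 measured, median -0.03) and proteasome subunits (37, -0.04) lay at the median gene, with 0 past 2-fold in each.

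Histone genes were shifted slightly downward together. Of 50 measured, 46 lay below the median gene, 0 were past 2-fold, and the median was -0.38. Their summed signal was 28697 on DMSO and 22372 on JQ1. H4c3 read 5.08 and 4.43, and H3c1 read 2.18 and 1.52. Histone genes have near-identical copies that probes may not separate, so the 46 are not independent. Histone messages are made in S phase, and the other genes of the cell cycle lay elsewhere. DNA replication genes (51 measured) had a median of 0.08, mitosis genes (43) 0.09 and G1 cyclins and kinases (18) 0.02. Only E2f5, a dim gene of the last list (-2.63 and -1.28), was past 2-fold among these lists. The inhibitor Cdkn1a read 1.77 and 1.62.

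Developmental genes that Polycomb silences were mostly not well above background on both arrays. Of 75 developmental transcription factors with a probe, 8 were measured, 1 of them higher (Noto, -2.72 and -1.11) and 1 lower (Eomes). Of 39 Hox genes, 12 were measured and none passed 2-fold. Their median was 0.22 (-0.33 over all 39 without the background filter), and Hoxa9 read -0.94 on DMSO and -0.58 on JQ1. Hmga2, a fetal-type gene that Ezh2 loss is known to release in this disease, read 1.07 and 1.54, 1.39-fold higher by the brighter probe and 0.33 log2 by the other. Its fetal partner Lin28b read -0.48 and 0.09, and the imprinted Dlk1 read 1.76 and 0.47, 2.44-fold lower by both probes. Plagl1, also imprinted, was 5.06-fold lower by its brightest probe, with its 4 probes between -2.34 and -0.32.

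In the JAK2-STAT5 list, 1 of 33 measured genes passed 2-fold. The cytokine Osm, a STAT5 target in myeloid cells, read -1.66 on DMSO and -0.41 on JQ1, 2.38-fold higher. Socs3, a feedback inhibitor, read 2.99 and 3.84, and the kinase Pim2 read -0.62 and 0.11, both within 2-fold. The STAT5 targets Cish, Socs2 and Pim1 read -0.33, -0.05 and 0.05 as differences, and Jak2 itself 0.08. ERK feedback genes, which are switched on by the RAS-ERK pathway and restrain it, held 2 higher and 0 lower of 16. Etv4 read -0.39 and 0.75, Dusp4, an ERK phosphatase, read -2.92 and -1.79, and Etv5 read 3.06 and 3.82. Among TGF-beta and BMP genes, the inhibitors of differentiation Id3 (0.69 and -1.25) and Id2 (4.08 and 2.91) were lower, and the BMP receptor Bmpr1a (-2.98 and -1.82) was higher.

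Inflammatory genes read low and mostly downward, with 17 of 19 below the median gene, 3 lower and 1 higher by 2-fold, and a median of -0.74. The chemokine Cxcl9 was 2.33-fold lower by both probes. Of 61 measured interferon response genes, 2 were lower (3.28%, close to the 3.22% of all measured genes) and 0 higher. Ifi27l2a read 6.07 on DMSO and 4.46 on JQ1, while the RNA sensor Ddx58 read 2.20 and 3.04, higher by both probes though under 2-fold. Immediate early genes, which rise within minutes of handling cells, had a median of -0.20 over 27, and only Gem, a small GTPase, passed 2-fold, reading 0.42 and 1.83. Heat shock genes held 2 lower of 26 (7.69%, all measured genes: 3.22%), with the inducible Hspa1a at 1.78 and -0.07. The survival genes Bcl2a1c and Bcl2a1d were 3.55-fold and 3.03-fold lower, but are near-identical copies. Adhesion and matrix genes included fibronectin, Fn1 (0.60 and -1.35), and galectin-3, Lgals3 (4.52 and 3.01), both lower.

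The lowest differences of all were of kallikreins, secreted proteases made mainly by glands. Klk1b5 read 1.5 on DMSO and -2.66 on JQ1, 17.9-fold lower, Klk1b26 read 0.95 and -3.16, 17.3-fold lower, and Klk1 read 0.42 and -3.05, 11.1-fold lower. Klk1b3 was 5.16-fold lower, and Klk1b24 was above background on DMSO only. These genes are near copies of each other, each with 1 measured probe, so the 4 calls of 8 measured members may count one transcript more than once. On the JQ1 LSK array Klk1b5, Klk1b26 and Klk1 read close to the level where detection ends, while Klk1b3 read -1.70. On the DMSO and JQ1 MEP arrays, Klk1b5 read -5.15 and -5.12, Klk1b26 -6.25 and -4.31, and Klk1 -3.93 and -5.95. Klk1b3 read -1.20 and -1.71 there. Each of these 4 thus read highest on the DMSO LSK array, and the part of that 1 array in these differences was not tested.

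Among other far-lower genes were the ion transport regulator Fxyd6, at 1.65 and -1.27 (7.56-fold), and Gfra2, a receptor for neurturin, at 3.00 and 0.45 (5.84-fold). The neuronal adaptor Apba1 read 1.00 and -1.65. The glycoprotein Olfm1 read 2.15 and 0.50, with its 4 probes between -1.78 and -1.21. At the other end stood Zfp607b, a zinc finger gene, at -3.05 and -0.38 (6.34-fold higher), the only gene higher by 4-fold and read by 1 dim probe. Tpm2, a tropomyosin, read -1.47 and 0.01 with both probes past 2-fold, and the trefoil peptide Tff1 read -1.24 and 0.01 likewise. Rps6ka3, an ERK-activated kinase, read 1.71 and 2.49, and all 4 of its probes lay between 0.71 and 0.87. Aifm2 was 3.28-fold higher by its brightest probe and read -0.10 by the other. Higher calls were thus few under the scaling used here. Like the lower calls, they were mostly dim and rested mostly on 1 probe.

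Of 1021 genes above background on only 1 LSK array, 632 were seen on JQ1 only and 389 on DMSO only. Their fold is a bound. On the array where the gene was dim, it used either the probe itself or the faintest probe that passed the background mark, whichever was brighter. By that bound, 115 were at least 2-fold higher and 285 at least 2-fold lower. The faintest passing probe was dimmer on the JQ1 array than on DMSO, which leaves room for larger bounds among lower genes. The part of this in the counts was not tested. The axon guidance gene Sema3a was at least 15.0-fold higher (0.52 on JQ1), by 1 of its 2 probes. The adhesion adaptor Fermt2 was at least 19.1-fold lower (0.39 on DMSO), also by 1 of 2 probes, and the collagen hydroxylase P3h2 at least 14.9-fold lower.

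Among the remaining metabolic and stress lists, single genes stood out from medians near 0. The tricarboxylic acid cycle list (26 measured, median 0.12) held 1 lower gene, Idh1, at -0.54 on DMSO and -1.66 on JQ1. Cholesterol and fatty acid genes (37, -0.02) held Scd1, the stearoyl desaturase, at -0.54 and -2.48. Glycolysis and hypoxia genes (39, 0.03) held the growth factor Vegfa, at 0.73 and -0.59, lower by both probes. In the lysosome list (39, -0.09) the protease Ctsh read 5.08 and 3.15, 3.81-fold lower, and no other member passed 2-fold. Respiratory chain subunits (78, -0.08) had 0 past 2-fold, although 63 lay below the median gene. Of 31 measured p53 targets the repair nuclease Ercc5 was lower (-0.48 and -1.66), and the median was 0.02.

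Large gene families differed in their share of calls (all genes: 0.544% higher and 3.22% lower). Of 315 measured zinc finger genes, 3 were higher and 3 lower (0.952% each). Solute carriers had 2 higher (0.980%) and 10 lower (4.90%) of 204, and the peptide transporter Slc15a3 read -1.47 and -3.29. Ion channels had 6 lower (13.3%) and 0 higher of 45, led by the sodium channel Scn2a at -0.61 and -3.46, 7.20-fold lower by 1 probe. Of 1315 olfactory and vomeronasal receptors on the array only 49 were measured, with 1 higher (2.04%) and 2 lower (4.08%).

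Probes without a gene name were also mostly lower where they passed 2-fold. Of 16194 probes placed on genomic intervals, 3778 were measured, with 40 higher and 119 lower by 2-fold, or 1.06% and 3.15%. Of 4251 measured probes on other transcripts without a symbol, 18 were higher and 101 lower (0.423% and 2.38%). Probes of named genes had 88 higher and 495 lower (0.548% and 3.08%). Over all 24080 measured probes the shares were 0.606% and 2.97%.

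The same contrast in MEP cells used other arrays and is set beside it. There, 123 of 12540 measured genes (0.981%) were higher and 723 (5.77%) lower by 2-fold. Of the 397 genes lower in LSK, 355 were measured in MEP, and 75 of these were lower and 4 higher by 2-fold there, with a median of -0.49. As differences, Ebf1 read -2.35 in LSK and -2.08 in MEP. Mefv read -2.18 in LSK and 0.21 in MEP, and Mpeg1 -1.69 and -0.72. Of the 67 genes higher in LSK, 52 were measured in MEP, where 5 were lower, 2 were higher and the median was -0.02. These MEP values rest on the DMSO MEP array described above, and whether the 2 contrasts differ was not tested.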

How the data were processed

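Each of 4 groups had 1 one-colour array, and p-values were not computed. Scans were read by the authors in Feature Extraction 10.7.1.1 (Agilent) for array design 028005, per the file headers, and the deposited processed signal is an intensity after background subtraction and detrending. The background, saturation and outlier marks are yes or no values of other kinds, per the file headers. The authors' deposited table holds a ratio: for brighter probes it is the processed signal divided by 1 constant per array, and it served as an alternative.

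Spot intensities without outlier mark were put on the log2 scale, averaged per probe, and reduced by the array's 75th percentile. Probes were named by transcript accession through RefSeq (GRCm38.p6): 28026 of 55681 received 1 symbol. The brightest probe over 4 arrays stood for a gene. Promoters came from the RefSeq table of GRCm38.p6; coordinates of probes (mm9) were not used. The files hold no mean spot signal, so normexp (limma 3.58.1, R 4.3.3, offset 50) used spot medians. Other steps used Python 3.11.15, numpy 2.4.6 and pandas 2.3.3, and were tested on simulated data.

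The comparison, its members and the 61 gene lists were chosen with earlier results of these data known. Genes named were the 20 farthest in each direction and the 12 largest bounds. Among genes with 2 or more probes, the 25 farthest by their least-moved probe were named as well. List members past 2-fold (at most 10) or farthest (up to 4) were named too. So were all members of 4 short lists with 7 further genes. The text gives a selection of all these. Genes outside this rule are marked, except list members not measured on both arrays, which are named without a mark. Some genes are not reported here.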

Additional observations from a re-analysis of the deposited data

Results flagged for a closer look

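Some genes had a JQ1 minus DMSO difference past 2-fold in both cell types and in opposite directions. Over all measured genes, 4 were lower in LSK and higher in MEP, and 5 were higher in LSK and lower in MEP. Of these, 5 are given here. The complement gene C3 read -1.59 in LSK and 1.25 in MEP, elastase Elane -1.09 and 1.40, and Ly6c1 -1.19 and 1.38. Sdc1, a plasma cell surface proteoglycan, read -1.02 and 1.49, and the GTPase Gem 1.40 and -1.11. Each value is 1 array against 1 array, and the difference between cell types was not tested.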

How the results depend on the processing

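The counts of 67 higher and 397 lower genes became 289 and 929 at 1.5-fold, and 6 and 150 at 3-fold. They were 153 and 256 with scaling to the median probe, 847 and 135 with spike-in scaling, 8 and 173 with normexp, 716 and 1275 with no background filter (21153 genes), and 5 and 69 among the 6163 genes above the median level. Scaling by 1 number moves every gene alike, by 0.26 for the median probe and 0.63 for spike-ins; the cause of the normexp counts was not tested. Quantile normalization gave 85 and 355, the deposited values gave 66 and 396, and the mean over probes 66 and 389. Of the 464 calls, 181 stayed past 2-fold the same way with normexp, 202 with spike-in scaling and 417 with quantile normalization. No paired analysis was possible because each group has 1 array. With 1 array per group no library can be left out, and signal over background limits the dim genes, where probe error is largest.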
